A study of Mus musculus with 24 samples.

Results

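A group of 112 cDNA clones whose female:male expression ratio was near 1 in undifferentiated and early differentiating mouse ES cells, and below 1 after 2 to 3 weeks of differentiation, is described here. The clones were chosen by their M values, the log2 of the female:male ratio, after the median of each array was subtracted from it. A clone had to have a value on all 20 ES cell arrays, a mean between -0.25 and 0.25 over the 8 arrays of days 0, 2 and 4, and a mean of at most -0.5 over the 10 arrays of days 12, 15 and 21. Of the 15247 clones listed, 3527 had a value on all 20 arrays, 1985 of these were near 0 early, and 112 also met the late limit (3.18% of the 3527, or 5.64% of the 1985). The mirror rule, with a late mean of at least 0.5, was met by 80 clones. These values chose the clones and are given without a test.

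Each array compared female with male cells on the same slide. ES cell arrays compared female PGK12.1 cells, whose parents were of different strains, with male CCE/R cells, of a single strain, before differentiation (day 0, 4 arrays) and after 2, 4, 7, 12, 15 and 21 days on non-adherent dishes without LIF (2, 2, 2, 3, 2 and 5 arrays). The labels give sex and day, and the assignment to these lines comes from the methods. A further 2 arrays compared thymic lymphocytes of 4-week-old Balb/c females and males, and 2 compared amplified RNA of inner cell masses (ICM) of cultured Balb/c blastocysts, where the female samples were biological and the male samples technical replicates. Each sex of ES cell was a single line, so sex and line cannot be told apart.

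X inactivation evens out X-linked gene dosage between XX and XY mammals. Xist RNA coats the chromosome to be silenced, and differentiating female ES cells are a common system for following it. When LIF is withdrawn, ES cells form aggregates in which cells of many lineages arise, and lines can differ in the lineages they yield. The deposited values carry neither the genes nor the chromosomes of the clones, and a ratio does not separate a lower female from a higher male level. Identity of the tissues could not be checked against marker genes for the same reason, and fewer cells of a type cannot be told apart from less RNA per cell.

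The early means of the 112 clones lay between -0.25 and 0.25 (median -0.05), and the late means between -1.71 and -0.50 (median -0.61, a female:male ratio of 0.654). The difference between late and early mean ran from -1.79 to -0.29, with a median of -0.58. Clones just inside the late limit had means of -0.501, -0.501 and -0.503, and those just outside it of -0.499, -0.497 and -0.497. At the early limits, members reached 0.246 and -0.248, and the nearest clones outside were at 0.252 and -0.2502. The group therefore has no gap at its borders.

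**Figure D1:**
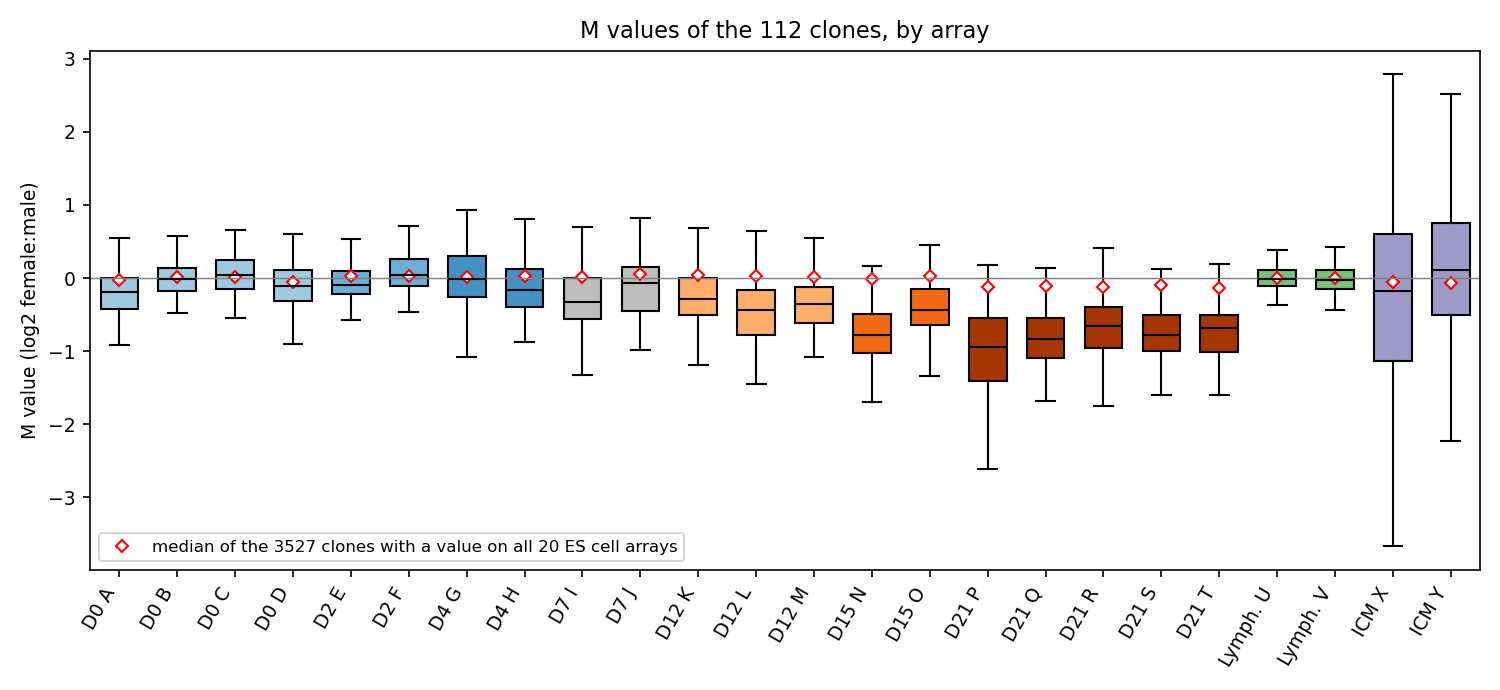
M values (log2 female:male, y axis) of the 112 clones on each array (x axis; 112 clones on every ES cell array, 108 to 112 on the others). Boxes span the quartiles with the median as a line, whiskers reach the farthest value within 1.5 times the box height, values beyond are not drawn, and red diamonds are medians of the 3527 clones. The boxes of day 21 lie below the red diamonds on all 5 arrays, and those of the lymphocyte arrays are centred near 0.

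Array by array, the day 0 medians of the 112 clones were -0.19 on replicate A, -0.01 on B, 0.04 on C and -0.11 on D. Replicate A, the only early array with the female sample in Cy3, was the lowest, with 83 of the 112 clones below 0. At day 2 the medians were -0.09 and 0.04, and at day 4 they were -0.01 and -0.16. A mean near 0 over the 8 early arrays did not require each day to be near 0. Of the 112 clones, 33 had a mean within 0.25 of 0 at each of days 0, 2 and 4, and 79 lay outside it on at least 1 of these days. For 14 clones the days lay beyond 0.25 in both directions. Day 4 was the most variable of the 3, with means from -0.78 to 0.97. At day 4, 55 of the 112 clones (49.1%) were within 0.25 of 0, against 88 (78.6%) at day 0 and 88 (78.6%) at day 2. Of the 1985 clones near 0 early, the shares were 58.7% at day 4, 75.3% at day 0 and 73.6% at day 2.

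The late days differed in how low the clones were. At day 12 the array medians were -0.28, -0.43 and -0.36 on replicates K, L and M, at day 15 they were -0.78 and -0.43 on N and O, and at day 21 they were -0.95, -0.84, -0.66, -0.78 and -0.69 on P, Q, R, S and T. All 10 late arrays thus had a median below 0, and the 5 of day 21 lay below every day 12 array. Averaged over arrays, the median was -0.36 ± 0.076 (SD over 3 arrays) on day 12. It was -0.60 ± 0.24 (SD over 2 arrays) on day 15 and -0.78 ± 0.12 (SD over 5 arrays) on day 21. The medians of the clone means were -0.35 at day 12, -0.60 at day 15 and -0.83 at day 21. In linear terms these are female:male ratios of 0.783, 0.658 and 0.561. The day 21 arrays make up 5 of the 10 arrays in the late mean, so the choice of clones leaned on that day. The medians of the 3527 clones at day 21 were themselves below 0, at -0.132 to -0.0883, against -0.0512 to 0.0604 on the other ES cell arrays.

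Single clones followed this order less regularly than the medians did. The mean M value was at most -0.5 for 40 of the 112 clones at day 12, 70 at day 15 and 106 at day 21. The same limit was met by 7.14%, 11.9% and 20.4% of the 3527 clones. Means above 0 were found for 18 clones at day 12, for 3 at day 15 and for none at day 21. The lowest of the 3 late days was day 21 for 75 clones, day 15 for 25 and day 12 for 12, and the means fell in the order of the days for 55 clones. These counts rest on the direction of each day. With the sign of day 12 turned they were 87, 25 and 0, with 81 in order, and with that of day 15 turned 90, 0 and 22, with 6 in order. On single arrays, 50 of the 112 clones were below 0 on all 10 late arrays, 37 on 9, 16 on 8, 7 on 7 and 2 on 6.

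The clones took different late courses. A mean of at most -0.5 was reached on all 3 late days by 26 clones, on days 15 and 21 but not day 12 by 38, on day 21 alone by 32, and on days 12 and 21 but not day 15 by 10. The remaining clones were 4 with days 12 and 15, and 2 with day 15 alone. The 26 clones low on all 3 days had median M values of -0.67, -0.86 and -0.81 at days 12, 15 and 21. The 32 clones low at day 21 alone had medians of -0.15, -0.23 and -0.99. Their medians differed most between days 15 and 21. The groups also differed at day 4, where the medians were -0.30 for the 26 clones, -0.32 for the 10 clones of days 12 and 21, 0.10 for the 38 clones and 0.05 for the 32 clones. These courses were read from the same values that chose the clones, and the differences between them were not tested.

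**Figure D2:**
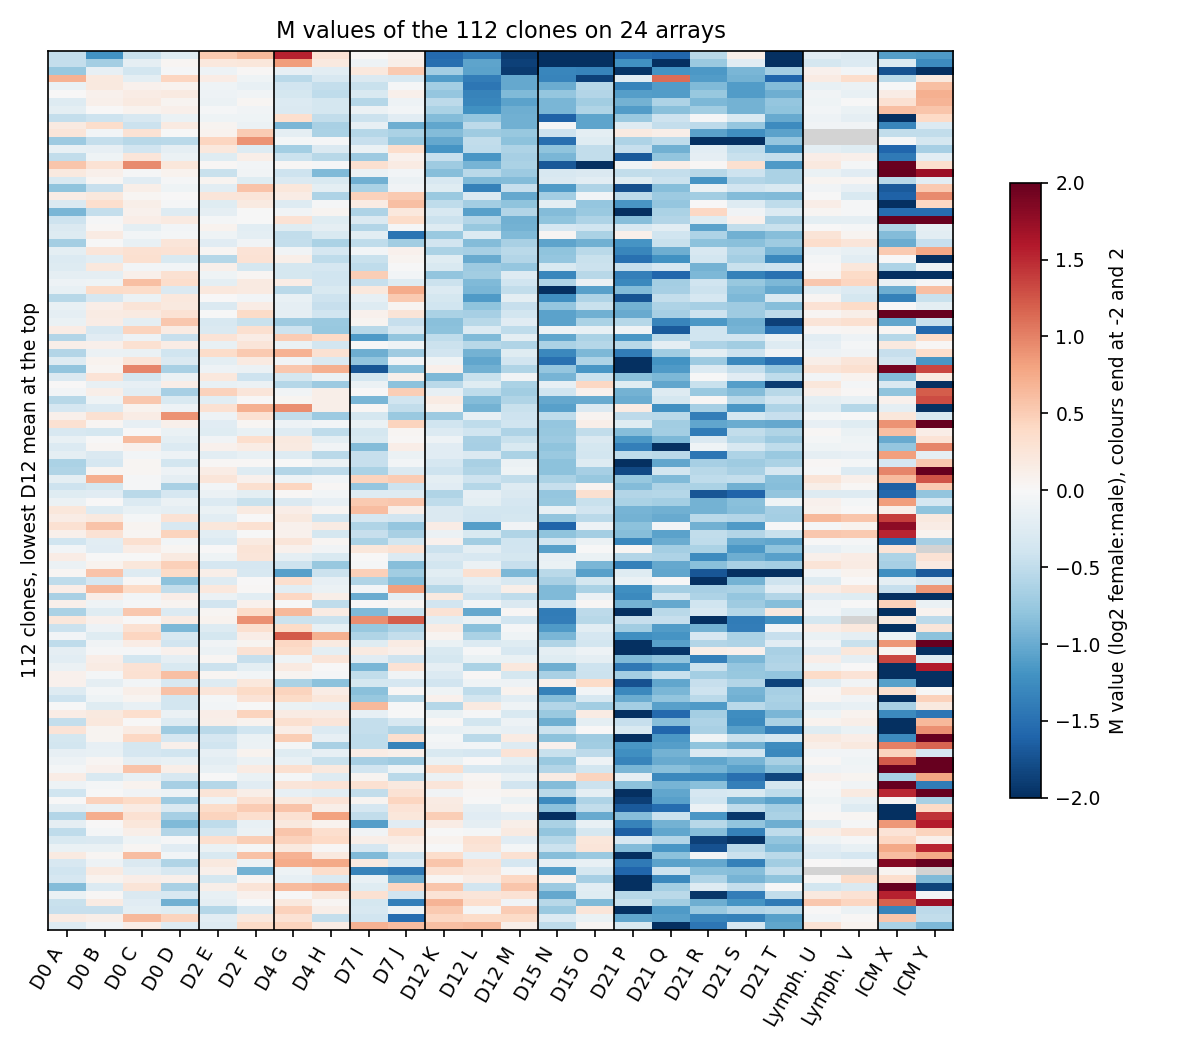
M values (log2 female:male, colour, blue lower and red higher in female cells) of the 112 clones (rows, ordered by their day 12 mean) on the 24 arrays (columns, grouped by day or cell type with black lines); grey marks no value. The 5 day 21 columns are blue over most rows, while the day 12 columns change from blue at the top to red for the 18 clones with a day 12 mean above 0.

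Across the 112 clones, day 12 and day 15 means had a correlation of 0.51, day 15 and day 21 means of -0.05 and day 12 and day 21 means of -0.29. Over the 3527 clones the same correlations were 0.43, 0.36 and 0.10. These are descriptions across clones that share arrays, and the limit on the late mean itself ties a high value on one day to a low value on another. Over all clones with a value, the 10 pairs of a day 15 and a day 21 array correlated at -0.012 to 0.56, and the 15 pairs of a day 12 and a day 21 array at -0.52 to 0.18, with 11 below 0. The 6 pairs of a day 12 and a day 15 array correlated at -0.24 to 0.45, and day 7 and day 12 means at 0.21 over the 3527 clones. The direction of day 12 was kept as deposited. With the sign of the day 12 arrays turned, 81 clones met the rule, 40 of them among the 112.

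**Figure D3:**
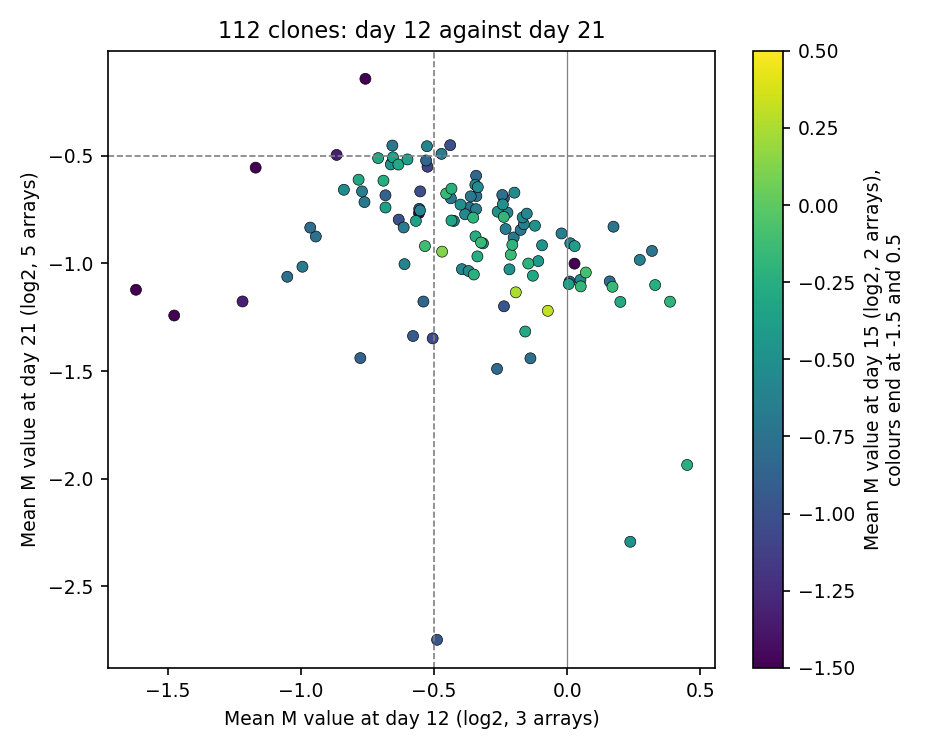
Mean M value (log2 female:male) of each of the 112 clones at day 12 (x axis, 3 arrays) and day 21 (y axis, 5 arrays), coloured by the day 15 mean (2 arrays); dashed lines mark -0.5 and the solid line day 12 at 0. All but 6 clones lie at or below -0.5 at day 21, and 40 lie at or below -0.5 at day 12.

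One array could decide whether a clone belonged to the group. Without its own lowest late array, 46 of the 112 clones had a late mean above -0.5, and 85 of the 112 were at or below -0.5 by the median of the late arrays. The lowest late value fell on a day 21 array for 92 clones, and on replicate P of day 21 for 43. Replicate P carried the female sample in Cy3, as did both day 15 arrays. The values were taken as female:male on every array, and if they were Cy5:Cy3 instead, the day 15 median of the group would be 0.60 and 19 clones would meet the rule. Without the 4 ES cell arrays of that dye orientation, 137 clones met the rule and 79 of the 112 were among them. Removal of abnormal spots by hand was mentioned in the labels of 15 of the 24 arrays. With those arrays alone 148 clones met the rule, 76 of them members, and with the others alone 146, of which 62 were members. The part of dye and hand removal in the late values was not tested. On late arrays, 6 values of the 112 clones were below -3, each in a different clone. The SD of a clone between arrays had a median of 0.41 at day 21 for the 112 clones and 0.42 for the 3527. At day 15 these medians were 0.30 and 0.24, and at day 12 they were 0.27 and 0.25.

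The 2 clones with the lowest late means show both cases. Clone H3156h06 had M values of -0.96, -0.61 and 0.10 at day 12, -1.16 and -0.77 at day 15, and -11.1, -1.14, -0.78, -0.48 and -0.27 at day 21. Replicate P of day 21 held the value of -11.1, and the other late values lay between -1.16 and 0.10. Its late mean was -1.71, and -0.67 without that array. Its day 0 values ran from -0.78 to 0.98, so they overlapped with its late values. At day 2 it was at -0.11 on both arrays, at day 4 at 0.54 and 0.71, and at day 7 already at -1.71 and -0.82. In lymphocytes (0.26 and 0.31) and ICM (1.92 and 1.34) both arrays were above 0. The adjusted p values of these means from limma were 0.71 at day 7, 0.060 in lymphocytes and 0.33 in ICM. The spread behind the day 7 test (standard error 1.64) included the value of -11.1. With the day 7 arrays alone the adjusted p was 0.0014. In that fit the standard error was 0.318 for each clone named here, so it did not reflect this clone's own spread. With dye as a covariate the adjusted p was 0.046 at an M value of -4.17, below both day 7 values. The dye term came from days 0 and 21, which include the value of -11.1, so nothing is read from that fit. In lymphocytes with the 3362 clones alone the adjusted p was 0.0019.

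Clone H3007e08 was low on every late array. Its M values were -1.05, -1.51 and -1.87 at day 12, -2.61 and -2.67 at day 15, and -2.03, -2.01, -1.21, -0.75 and -0.22 at day 21. Its day 0 values were -0.68, -0.47, -0.19 and 0.03, those of day 2 were 0.21 and 0.23, and those of day 4 were 0.19 and 0.84. The day 12 and day 15 values did not overlap with the early values, and those of day 21 did. The day 15 mean was -2.64 ± 0.045 (SD, n = 2), lower than the day 21 mean of -1.24 ± 0.79 (SD, n = 5). On the arrays that did not choose it, it was near 0 at day 7 (-0.10 and 0.11), at -0.36 and -0.28 in lymphocytes and at -0.27 and -1.26 in ICM. The adjusted p values of these means were 0.99, 0.055 and 0.59 from limma. In lymphocytes with the 3362 clones alone the adjusted p from limma was 0.0011, so the call depended on the fit.

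Day 7 was not used to choose the clones and lies between the days that were. The 2 day 7 arrays had medians of -0.33 (replicate I) and -0.06 (replicate J) for the 112 clones, where the 3527 clones had medians of 0.02 and 0.06. The median of the clone means was -0.24 for the 112 clones, 0.02 for the 3527 and 0.37 for the 80 clones of the mirror rule. The mean was below 0 for 81 of the 112 clones (72.3%, against 48.3% of the 3527) and above 0 for 31. A mean of at most -0.5 was already reached at day 7 by 30 of the 112 clones (26.8%), against 14.7% of the 3527. Both arrays were below 0 for 57 clones (50.9%, against 31.2%) and above 0 for 20 (17.9%, against 37.3%). For 15 of the 112 clones (13.4%) both day 7 arrays were above 0 and all 5 day 21 arrays below it, against 182 of the 3527 (5.16%). The day 21 values were among those that chose the group, so nothing is read from this difference.

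In limma, with a mean for each day over the 20 ES cell arrays and Benjamini-Hochberg adjustment over 7122 clones, 6 of the 112 clones (5.36%) were lower in female cells at day 7 at an adjusted p under 0.05, against 2.74% of all clones tested. None of the 112 was higher, against 7.06% of all clones tested, and 5 were higher at an unadjusted p under 0.05 against 18 lower (4.46% and 16.1%, against 15.4% and 9.44% of all tested). Among the 3527 clones from which the group was drawn, the same fit called 3.71% lower and 8.56% higher. At the unadjusted limit these shares were 11.5% and 17.6%. The 6 clones had M values of -1.37 to -0.65 and adjusted p values of 0.0052 to 0.038 from limma. Their number depended on the model. With dye orientation as a covariate 14 of the 112 were lower, against 235 of the 7122 tested. With array weights 2 of the 112 were lower, against 87 of the 7122. Leaving out replicate I or J leaves 1 array for day 7, so no calls are given for that. The group median was -0.06 without replicate I and -0.33 without replicate J. Of the 53 clones low throughout, with early and late means of at most -0.5, 16 were lower at day 7. Only 2 arrays stand behind each day 7 mean, and its standard error had a median of 0.26 over the 112 clones. That error came from all 20 ES cell arrays, among them those the rule used. The calls were therefore not wholly separate from the choice of the clones.

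The 2 members with the highest day 7 means were above 0 on both arrays of that day. Clone H3010a08 had M values of 0.93 and 1.22 at day 7, after 0.01 to 0.23 at day 0, 0.07 and 0.92 at day 2 and -0.43 and -0.42 at day 4. At day 12 it was at -0.38, -0.21 and -0.12, at day 15 at -1.39 and -0.56, and at day 21 at -2.46, -1.39, -1.23, -0.46 and -0.46. Its day 7 values were the highest of the whole course, and all 10 late values were below 0. The day 7 mean of 1.07 had an adjusted p of 0.062 from limma. It was 0.033 with the 3527 clones alone, 0.0096 with the day 7 arrays alone and 0.037 with dye as a covariate, so the call depended on the fit. The day 7 arrays alone gave a standard error of 0.318 for each clone named here, not the spread of this clone. The dye term came from days 0 and 21, which the rule used, and moved the mean to 1.35, above both day 7 values. The clone was measured on 1 lymphocyte array, at -0.35, and the ICM arrays gave 0.19 and -0.52. Clone H3074g01 had M values of 0.70 and 0.62 at day 7 and was still above 0 at day 12, at 0.60, 0.64 and 0.12. Earlier it had been at -0.25 to 0.15 at day 0, -0.26 and 0.39 at day 2 and 0.45 and 0.15 at day 4. At day 15 it was at -0.51 and 0.04, and its low values were those of day 21. At day 21 its values were -6.54, -1.44, -1.05, -0.34 and -0.31. Its late mean was -0.88, and -0.25 without replicate Q of day 21, which held the value of -6.54. The adjusted p of its day 7 mean was 0.73 from limma. The spread behind that test (standard error 0.92) included the value of -6.54. With the day 7 arrays alone the adjusted p was 0.16. Lymphocytes gave 0.29 and 0.07, and ICM -0.64 and -0.90.

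**Figure D4:**
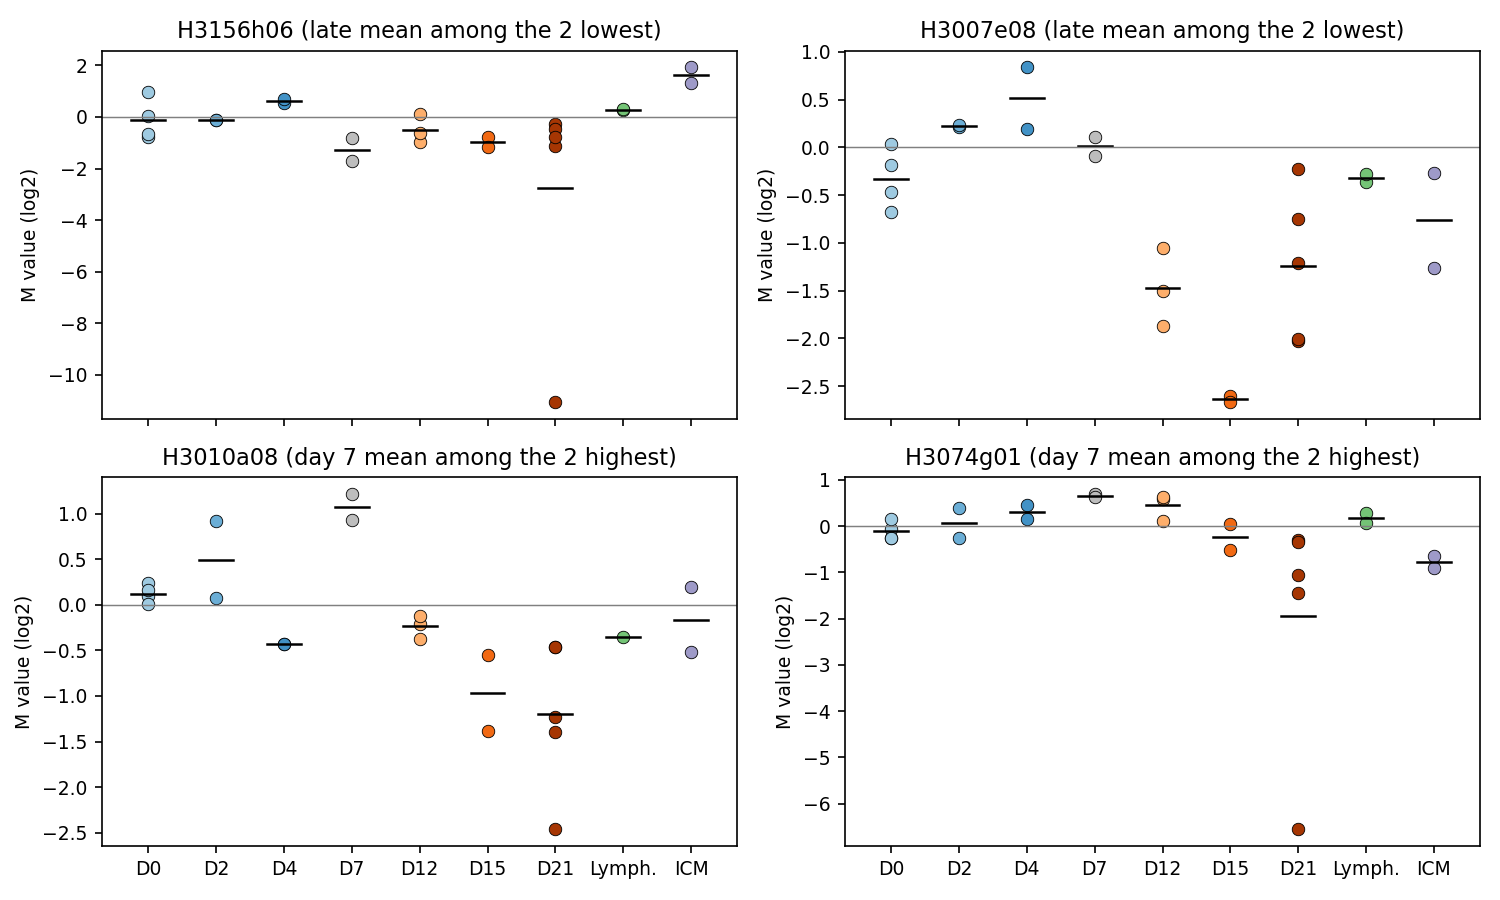
M values (log2 female:male, y axis, a different range in each panel) of 4 clones on every array (points) by day or cell type (x axis), with the mean of each group as a line. H3007e08 is low at days 12 and 15 on all arrays, and 1 array of day 21 lies far below the rest in H3156h06 (-11.1) and in H3074g01 (-6.54).

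In adult thymic lymphocytes the group was centred near 0. Of the 112 clones, 109 had a value on replicate U and 108 on replicate V, with medians of -0.01 and -0.03 against 0.00 for the 3527 clones on both. Clone means ran from -0.41 to 0.60, none was at most -0.5, and 92 of the 109 clones (84.4%) were within 0.25 of 0. Over the 3451 clones measured there, 1.54% were at most -0.5 and 78.3% within 0.25, so few clones of any kind were far from 0 in lymphocytes. Both arrays were below 0 for 48 of the 108 clones measured on both (44.4%, against 39.3% of all clones) and above 0 for 36 (33.3%, against 40.9%). In limma over 7781 clones, none of the 108 was lower in female lymphocytes, against 5.68% of all clones tested, and 14 were lower at an unadjusted p under 0.05 and 13 higher, as were 1455 and 1399 of the 7781 tested. A higher ratio was called for 4 of the 108 (3.70%), against 5.27% of all clones tested, with M values of 0.48 to 0.60 and adjusted p values of 0.030 to 0.035. Of the 3362 clones in this fit with a value on all ES cell arrays, 4.10% were called lower and 4.07% higher. At an unadjusted p under 0.05 these shares were 16.2% and 16.9%. When only clones present on all ES cell arrays entered the fit (3362 clones), 20 of the 108 were lower (18.5%, against 20.3% of the clones in that fit) and 22 higher (20.4%, against 21.2%).

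The ICM arrays were wider and did not show a common direction either. Replicate X had a median of -0.18 over 112 clones and replicate Y of 0.11 over 110 clones, with quartiles of -1.13 and 0.60 on X and -0.51 and 0.75 on Y. Single values reached from -5.85 to 4.79. Both arrays were below 0 for 33 of the 110 clones (30.0%, against 31.3% of all clones) and above 0 for 30 (27.3%, against 27.2%). No clone was called in either direction by limma, among the 110 or among the 11515 tested (0% in each direction), and 7 of the 110 were lower and 9 higher at an unadjusted p under 0.05 (6.36% and 8.18%, against 7.53% and 5.95% of all tested). The median standard error of a clone was 0.52, about as large as the late shift that chose the group, so a shift of that size in a single clone was not detectable with these arrays. Of the late courses, the 26 clones low on all 3 late days had an ICM median of -0.65 with 20 below 0, and the 10 clones low at days 12 and 21 one of -0.39 with 9 below 0. The 38 clones low at days 15 and 21 had a median of 0.10 with 17 below 0, and the 32 clones low at day 21 alone one of 0.04 with 15 below 0. Of the 3507 clones measured in ICM, 54.6% had a mean below 0, and the differences between the courses were not tested.

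**Figure D5:**
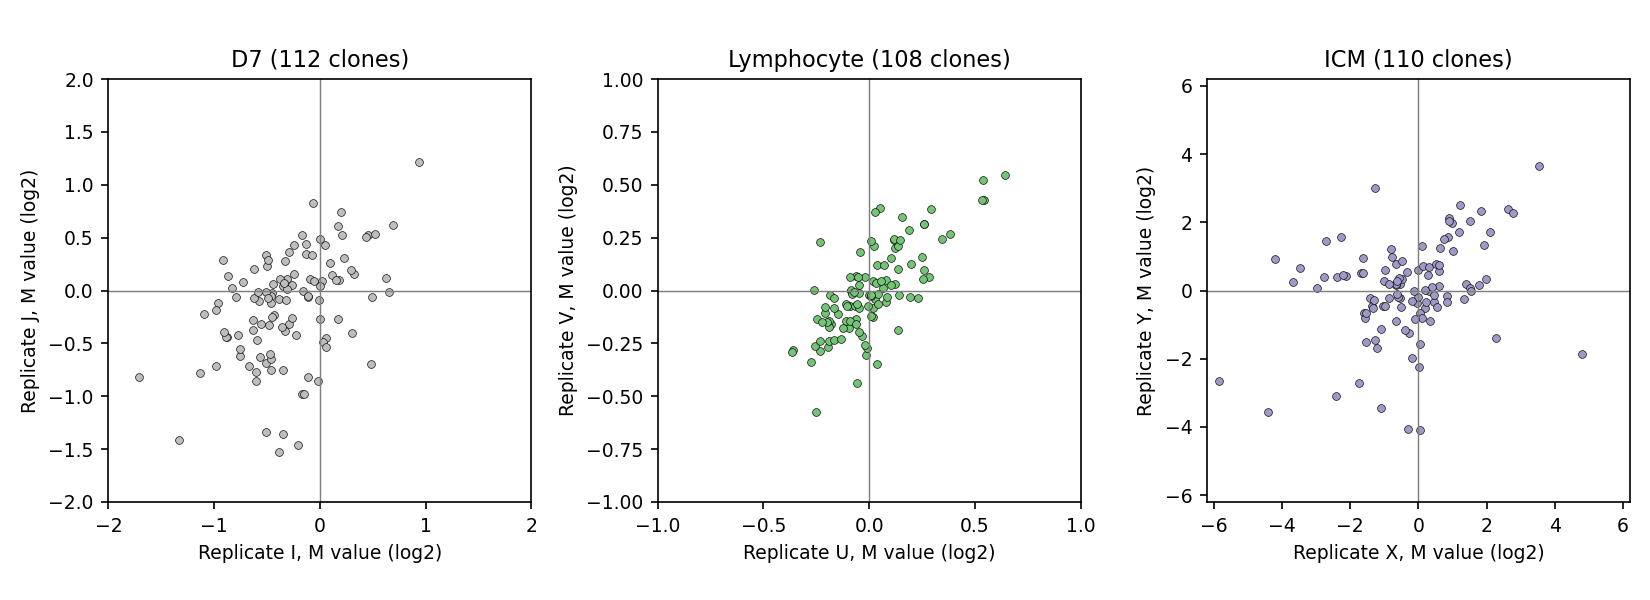
M values (log2 female:male) of the 112 clones on the 2 arrays of day 7 (left), lymphocytes (middle) and ICM (right) that were not used to choose them, one array on each axis and a point per clone with a value on both; the axes of the panels differ. The day 7 points lie mostly in the lower left (57 of 112 below 0 on both arrays), and those of lymphocytes within 0.65 of 0.

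Across the clones of the group, the 2 arrays of a kind correlated at 0.44 for day 7, 0.74 for lymphocytes and 0.32 for ICM, against 0.59, 0.79 and 0.33 over the 3527 clones. The clone means at day 21 had correlations of 0.00 with day 7 (112 clones), -0.04 with lymphocytes (109 clones) and -0.01 with ICM (112 clones), within a narrow range of day 21 values. Over all clones present on the ES cell arrays, the day 21 correlations were 0.32 with day 7, 0.03 with lymphocytes and -0.07 with ICM. The rule used the day 21 values, which limits what the values within the group can show. These correlations are across clones and carry no test.

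The name of a clone gives its place in the library, read here as a plate and a well. The 112 clones came from 79 of the 159 plates, with 1 clone on 53 plates, 2 on 21, 3 on 4 and 5 on 1. Plate 3027 held 5 members among its 48 clones with a value on all ES cell arrays. Of the 43 pairs of members on the same plate, 5 were in adjacent wells. By row of the plate, the members made up from 1.77% (row h) to 4.68% (row d) of the 3527 clones, and by column from 2.11% (column 5) to 4.61% (column 8). Clones of a library can come from the same gene, and the number of genes behind the 112 clones is not known here.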

How the data were processed

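The deposited values are log2 ratios of the 2 dyes, 1 per clone and array, for 15247 clones of the NIA 15K library and 24 arrays. The authors balanced the dyes at scanning, extracted the data with GenePix, removed abnormal spots by hand and normalised with Gepas. The background correction is not given in the sources used here. Values were read as female:male, which is likely from the M value definition in the paper, and the 7 same-day pairs of ES cell arrays with opposite dyes correlated at 0.076 to 0.68. Day 15 has no such pair. An array held 4985 to 13736 clones, with deposited medians of -0.0815 to 0.0398, which were subtracted. Intensities were not used. None of the clone names matched the RefSeq table used here (GRCm38.p6), so the gene lists set down were not applied and no sequence is shown.

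The 7122 clones measured at least once on every day were fitted with limma 3.58.1 (R 4.3.3) with a mean per day, so the spread behind a day 7 test came from all 20 ES cell arrays. Lymphocyte and ICM arrays were fitted apart over clones present on both arrays. An adjusted p under 0.05 (Benjamini-Hochberg) was a call. The fits were tested on simulated data. The legends call ES cell replicates biological. The clones named were the 2 with the lowest late mean and the 2 highest at day 7. The group, lists and rules were chosen with earlier results of these data known. Alternatives changed centring, scale, direction, averaging, filters, moderation (statmod 1.5.0), weights, dye and arrays. The following were added after the data were seen: the wider filter, the turned sign of day 12 or day 15, named clones without their lowest day 21 array, and leaving out a whole late day.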

Additional observations from a re-analysis of the deposited data

Results flagged for a closer look

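Among the named clones and the group medians, at days 0 and 21, 2 values stood far from the other arrays of their day by Dixon's test, which flags about 1 in 20 groups by chance. They were -11.1 for clone H3156h06 on replicate P of day 21 and -6.54 for clone H3074g01 on replicate Q of day 21. Over the whole group, 12 of the 112 clones (10.7%) had such a value at day 21, 7 of them on replicate P (6.25% of the 112). Over the 3527 clones there were 238 (6.75%), 115 of them on replicate P (3.26%). Replicate P held the most of the day 21 arrays in both sets. The late mean that chose the clones favours extreme low values on the day 21 arrays, so nothing is read from the count in the group.

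Among day 7, day 21, lymphocytes and ICM, 3 named clones had all arrays of one above 0 and all of another below it, and none of these differences was tested. Clone H3010a08 had a day 7 mean 2.27 above its day 21 mean. Clone H3074g01 had a day 7 mean 2.60 above day 21 and 1.43 above ICM, a lymphocyte mean 0.945 above ICM, and a difference of -2.11 for day 21 minus lymphocytes. Without replicate Q the differences that involve day 21 were 1.44 and -0.96. Clone H3156h06 was below 0 at days 7 and 21 and above 0 in lymphocytes and ICM. Its differences were -1.55 for day 7 minus lymphocytes, -2.89 for day 7 minus ICM, -3.03 for day 21 minus lymphocytes and -4.38 for day 21 minus ICM, and without replicate P those of day 21 were -0.95 and -2.29.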

How the results depend on the processing

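The number of clones that met the rule was 112, and 99 to 152 with an array left out. It was 260 without the day 12 arrays, 139 without those of day 15 and 87 without those of day 21. Of the 112 clones, 107, 104 and 49 were among these. The number was 19 with values taken as Cy5:Cy3, and 339 with a value required on 1 array of each day only. Centred on the 3527 clones, 85 clones met the rule and 102 its mirror, so the order of these counts turned. The group median at day 12 was -0.40 to -0.32 with an array left out. At day 15 it was -0.78 to -0.43, and 0.60 as Cy5:Cy3. At day 21 it was -0.85 to -0.76, -0.69 with arrays scaled to a common spread and -0.42 as Cy5:Cy3. At day 7 it was -0.33 to -0.06, in lymphocytes -0.025 to -0.014 (-0.042 scaled) and in ICM -0.18 to 0.11. The count lower at day 7 was 0 to 4 with an array left out, 3 scaled, 2 with array weights, 12 with the 3527 clones alone and 14 with dye as a covariate; the count higher was 0 with an array left out, and 1 with the 3527 clones alone, with dye as a covariate and with the day 7 arrays alone. The dye term came from days 0 and 21, whose arrays the rule used, so nothing is read from the counts with dye. In lymphocytes 1 clone was lower when centred on the 3527 clones, against 487 of the 7781 tested. With the 3362 clones alone 20 were lower and 22 higher (18.5% and 20.4%, against 20.3% and 21.2% of those tested). The causes were not tested. Lymphocyte and ICM arrays could not be tested singly. No paired analysis was possible because the labels number no replicates across days.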
